A study of Mus musculus with 28 samples.

Results

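The matrix metalloproteinases (Mmp), the secreted Adamts metalloproteases and the tissue inhibitors of metalloproteinases (Timp) were described here as one set of genes in mouse cranial neural crest cells. The set took every protein-coding gene of GRCm38.p6 whose symbol is Mmp, Adamts or Timp followed by digits and at most 1 trailing letter, which gave 46 of 21887 genes. They are 23 Mmp genes, 19 Adamts genes and 4 Timp genes. Of the Mmp genes, 10 stand in 1 run on chromosome 9, with gaps of less than 100 kb between neighbours, and are called the clustered Mmp genes. The other 13 Mmp genes lie elsewhere.

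The cranial neural crest is the migratory embryonic population that forms most of the facial skeleton. Acetylation of histone H3 at lysine 27 (H3K27ac), which marks promoters and enhancers in use, was mapped by chromatin immunoprecipitation and sequencing in wild-type (WT) crest cells at E10.5, in mid-gestation. The cells came from dissected embryos and were sorted by flow cytometry. The populations are labelled FNP, Mx, Md and PA2, with 1 library each, and the authors merged the reads of these 4 libraries before calling intervals once. The remaining 24 of the 28 libraries, which include Ezh2cKO and HoxA2OE cells, other antibodies and inputs, were not analysed here. A single pooled list has no replicate error and no population per interval, so no statistical test was made and counts over the members stand beside the same counts over all protein-coding genes.

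Mmp enzymes are zinc proteases that cut collagens, gelatin and other matrix proteins, and most are secreted as inactive precursors. Adamts enzymes carry a disintegrin-like module and thrombospondin repeats, and cut proteoglycans, procollagens and other matrix and plasma proteins. Timps bind the active site of these proteases and block it. During facial development these enzymes are known for clearing and remodelling the matrix through which crest cells move and in which they later form skeleton and connective tissue.

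The list held 125826 intervals, of which 125580 lay on chromosomes 1 to 19, X and Y. Their median score was 111 and their median width 271 bp. The score is the authors' deposited value for each interval, used here only to describe and rank intervals within this list. The sequencing depth of the libraries is not known from the files. Over all protein-coding genes, 65% had an interval within 1 kb of a gene end. Of the crest mesenchyme markers 8 of 8 had one, with highest scores of 87 to 4697. Endothelial markers also had one in 6 of 6, at 98 to 435. Blood markers had one in 2 of 6 (Spi1 at 1492 and Klf1 at 1480, with none at Ptprc, Csf1r, Gata1 and Hbb-y). Epithelial markers had one in 3 of 6 (Grhl2 at 1367, Epcam at 439 and Krt8 at 234, with none at Cdh1, Esrp1 and Cldn6). The part that other cell types have in the intervals at the members was not tested.

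An interval lay within 1 kb of a gene end at 33 of the 46 members (71.7%), against 65% of all protein-coding genes. The share over the whole set covered an uneven division among the families. Intervals stood at an end of 18 of 19 Adamts genes, 4 of 4 Timp genes and 11 of 13 Mmp genes outside the cluster. None of the 10 clustered Mmp genes had one. Over all genes the share was 55.2% under 20 kb, 75.6% at 20 to 100 kb and 80.0% over 100 kb. The Adamts genes of these classes were marked in 2 of 2, 7 of 7 and 9 of 10. In the 2 shorter classes, 0 of 8 and 0 of 2 clustered Mmp genes were marked. Where the promoter table gives a strand, the 5′ end carried an interval at 10 of 10 Adamts genes, 4 of 4 Timp genes, 6 of 8 Mmp genes elsewhere and 0 of 10 clustered Mmp genes, against 62% of all genes with a strand.

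The scores at those ends were moderate. The highest score at a gene end had a median of 1280 over the 33 marked members, against 2494 over all 14235 marked genes (quartiles 704.5 and 4793.5). The median was 1066 for the Adamts genes, 1362 for the Timps and 1745 for the Mmp genes elsewhere. An end interval with a score of at least 100 lay at the same 33 of 46 members, against 61.2% of all genes. The highest end scores of members ran from 101 at Mmp9 to 5399 at Timp2. In a pool of populations, acetylation in few cells and weak acetylation in many cells cannot be told apart.

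**Figure D1:**
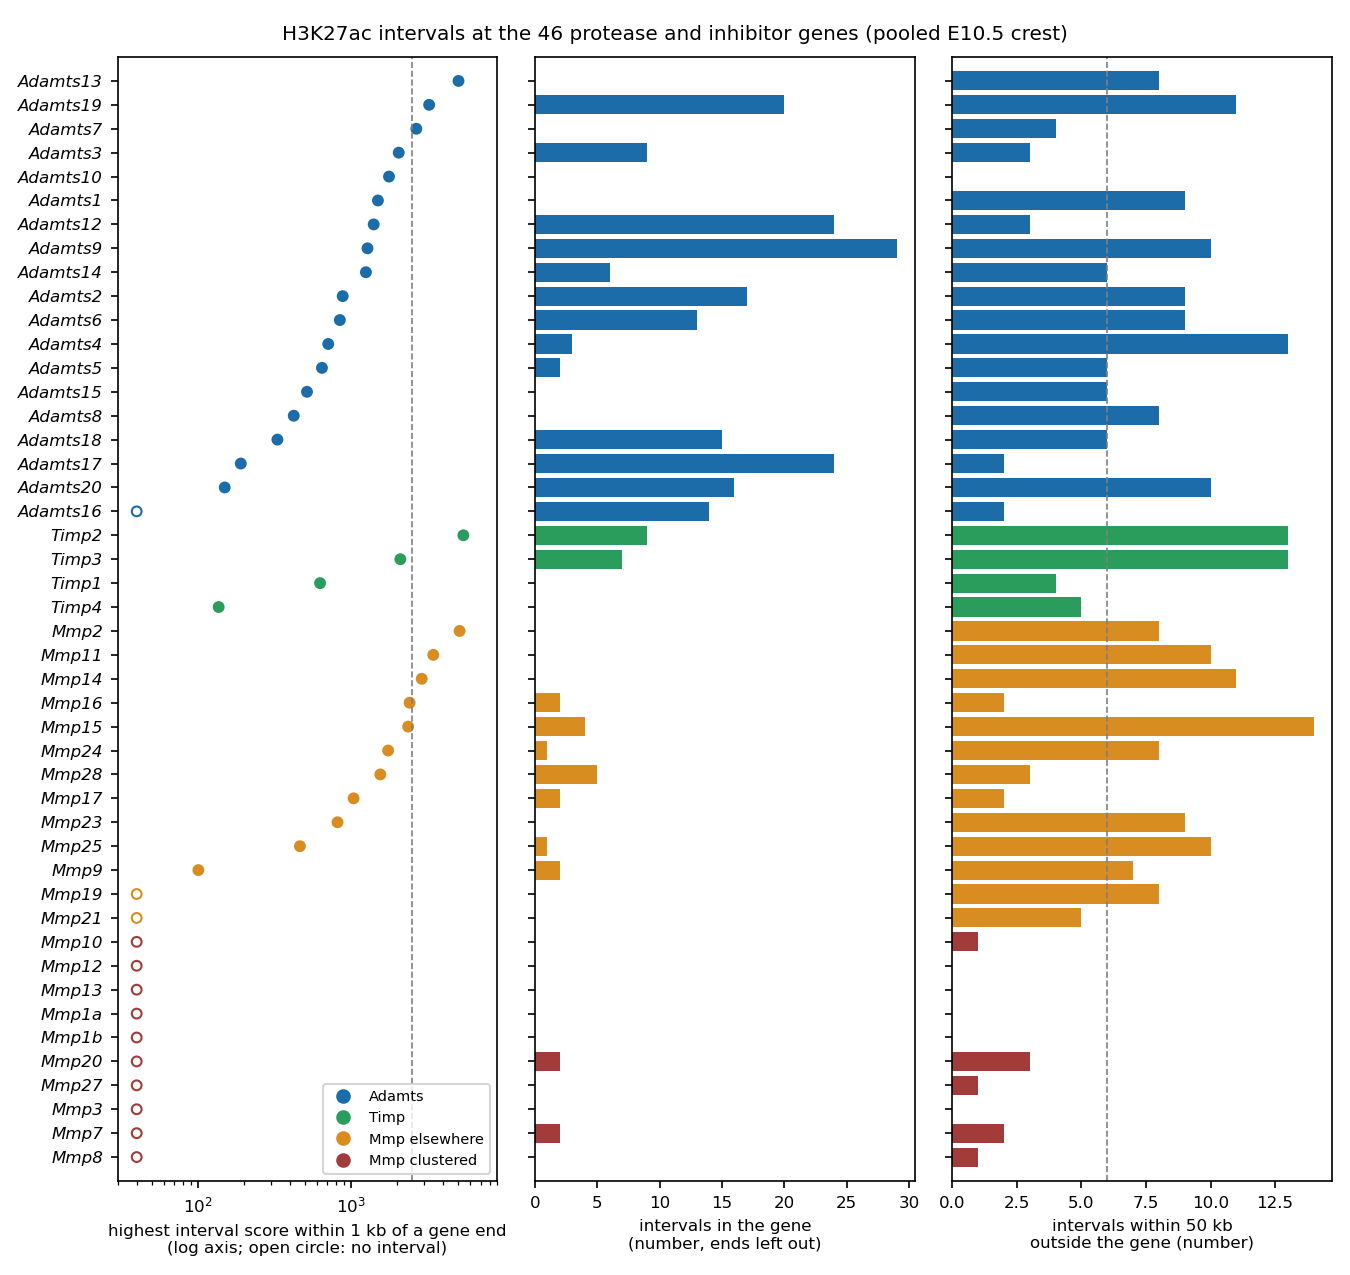
Highest score of an interval within 1 kb of a gene end (left, log axis, open circles for genes without one), number of intervals inside the gene (middle) and number within 50 kb outside it (right) for the 46 genes, coloured by group. The dashed lines are the medians over all marked genes (2494, left) and over all protein-coding genes (6, right); the clustered Mmp genes, at the bottom, have open circles throughout and at most 3 flanking intervals.

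The Mmp cluster spans 427.072 kb (chr9:7272514-7699585). In order along the chromosome it holds Mmp13, Mmp12, Mmp1b, Mmp3, Mmp1a, Mmp10, Mmp8, Mmp27, Mmp20 and Mmp7, of which Mmp1b lies on the minus strand. Mmp13, Mmp1a, Mmp1b and Mmp8 encode collagenases, and Mmp3 and Mmp10 the stromelysins. Mmp7 encodes matrilysin, Mmp12 the macrophage metalloelastase and Mmp20 enamelysin, the protease of forming tooth enamel.

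There were 6 intervals across the cluster, or 14.05 per Mb, against 53.9 per Mb over chromosome 9. Their scores ran from 49 to 383, with a median of 94.5, and 3 of them reached 100. An interval-free stretch of 323.206 kb (chr9:7221844-7545049) covered 6 of the 10 genes, Mmp13, Mmp12, Mmp1b, Mmp3, Mmp1a and Mmp10. Of the 125559 gaps between neighbouring intervals of the list, 751 (0.598%) were at least as long. That is a share of gaps by number. Long gaps cover a larger share of the sequence, which was not computed. Of the 10 genes, 8 had no interval at an end or inside, against 25.6% of all genes and 39.8% of genes under 20 kb. For 5 of them (Mmp13, Mmp12, Mmp1b, Mmp3 and Mmp1a) there was none within 50 kb either, against 12.5% of all genes and 19.4% of genes under 20 kb. The genes of the cluster share this stretch, so these counts are not independent.

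The distance to the nearest interval was 145.827 kb at Mmp1b and 122.554 kb at Mmp12, 89.075 kb at Mmp3, 68.181 kb at Mmp1a and 50.671 kb at Mmp13. It was 34.808 kb at Mmp10, 26.145 kb at Mmp27 and 13.178 kb at Mmp8. For Mmp3, Mmp1a, Mmp10, Mmp8 and Mmp27 that nearest interval was the same one, with a score of 198 (chr9:7545050-7545251) between Mmp10 and Mmp8.

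The intervals of the cluster otherwise stood at its far end. Mmp20 held 2 inside the gene, with scores of 89 and 84. Mmp7 held 2, with scores of 383 (chr9:7693577-7694097) and 100. In so short a gene (7.496 kb) these came to 26.7 per 100 kb, the highest density of the 46 members and in the 98.3rd percentile of genes under 20 kb. The interval of 383 had the highest score in the cluster and began 1.487 kb from the annotated end of Mmp7, outside the 1 kb window.

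Outside the cluster, intervals did not resume at its edges. The nearest before Mmp13 (chr9:7221655-7221843) lay 50.671 kb away with a score of 66. The nearest after Mmp7 was chr9:7752012-7752209, with a score of 131. Higher scores stood further out. On one side Dync2h1 and Dcun1d5 shared an interval at their ends with a score of 1888, and Dcun1d5 held one of 4484 inside the gene. On the other side Tmem123 had an interval of 5555 and Birc2 one of 4581 at a gene end. The scores of 1888, 4484, 5555 and 4581 are each above every score inside the cluster.

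**Figure D2:**
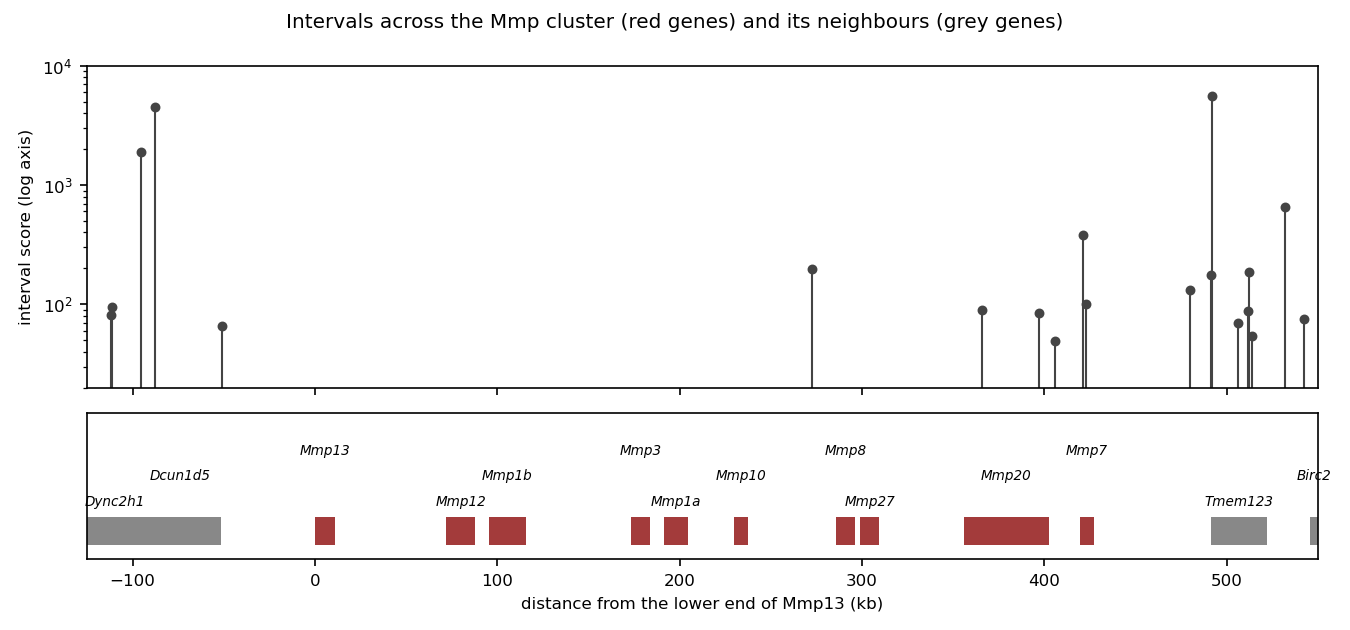
Interval scores (log axis) against distance in kb from the lower end of Mmp13 across the Mmp cluster (red boxes) and its neighbours (grey boxes), with 1 line per interval at its midpoint. The region over the first 6 Mmp genes holds no interval, the 6 intervals of the cluster have scores of 49 to 383, and the neighbours on both sides reach 4484 and 5555.

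The start-site windows of these genes differed in base content as well as in acetylation. RefSeq windows of GRCm38.p6, from 250 bases before to 50 bases after a start site, were at hand for 32 of the 46 members, with 35 windows in all. An interval lay within 1 kb of the start site at 0 of 12 windows in the cluster and at 21 of 23 windows of members outside it, against 54.3% of all 32851 windows. The 2 windows outside the cluster without an interval belong to Mmp21 and Mmp24.

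The 6 windows below show the letters at unmarked and at marked start sites. They are 3 from unmarked cluster genes (a collagenase and both stromelysins), then the membrane protease Mmp14, the inhibitor Timp2 and the protease Adamts1, whose start sites all lie inside an interval. Sequences are from RefSeq (GRCm38.p6), 5′ to 3′ on the gene's strand. Capitals mark TATAAA (the TATA box), TGANTCA (a site of the AP-1 family) and GGGCGG (the GC box), each searched on both strands.
Mmp13 (chr9:7272264-7272563, plus strand): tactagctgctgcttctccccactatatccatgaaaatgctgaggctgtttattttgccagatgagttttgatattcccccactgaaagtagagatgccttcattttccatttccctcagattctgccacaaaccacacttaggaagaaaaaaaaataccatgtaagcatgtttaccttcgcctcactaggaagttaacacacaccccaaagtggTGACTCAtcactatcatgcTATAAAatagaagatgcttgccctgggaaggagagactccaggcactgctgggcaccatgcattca
Mmp3 (chr9:7445572-7445871, plus strand): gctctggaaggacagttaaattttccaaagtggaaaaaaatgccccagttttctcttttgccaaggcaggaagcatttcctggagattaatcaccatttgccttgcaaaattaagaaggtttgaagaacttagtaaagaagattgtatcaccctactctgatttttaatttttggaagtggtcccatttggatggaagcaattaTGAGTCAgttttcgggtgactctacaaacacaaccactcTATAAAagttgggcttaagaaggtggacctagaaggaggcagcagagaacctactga
Mmp10 (chr9:7502092-7502391, plus strand): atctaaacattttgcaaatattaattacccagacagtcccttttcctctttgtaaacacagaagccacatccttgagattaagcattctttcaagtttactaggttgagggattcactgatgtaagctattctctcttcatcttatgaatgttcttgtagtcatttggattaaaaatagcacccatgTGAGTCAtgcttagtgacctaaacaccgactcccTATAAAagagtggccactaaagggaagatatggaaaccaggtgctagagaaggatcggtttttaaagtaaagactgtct
Mmp14 (chr14:54431348-54431647, plus strand): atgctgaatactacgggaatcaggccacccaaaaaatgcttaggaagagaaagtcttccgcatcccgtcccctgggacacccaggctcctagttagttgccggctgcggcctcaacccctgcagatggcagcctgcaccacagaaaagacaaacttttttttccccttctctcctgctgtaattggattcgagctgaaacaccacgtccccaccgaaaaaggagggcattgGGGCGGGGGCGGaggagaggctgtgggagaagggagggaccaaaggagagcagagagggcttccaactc
Timp2 (chr11:118355362-118355661, minus strand): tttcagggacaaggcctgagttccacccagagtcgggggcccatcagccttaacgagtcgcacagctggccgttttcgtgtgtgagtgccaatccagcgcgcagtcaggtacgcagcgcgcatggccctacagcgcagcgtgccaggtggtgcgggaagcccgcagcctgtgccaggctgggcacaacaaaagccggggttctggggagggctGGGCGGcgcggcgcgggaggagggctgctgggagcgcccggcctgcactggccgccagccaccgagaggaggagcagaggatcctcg
Adamts1 (chr16:85803064-85803363, minus strand): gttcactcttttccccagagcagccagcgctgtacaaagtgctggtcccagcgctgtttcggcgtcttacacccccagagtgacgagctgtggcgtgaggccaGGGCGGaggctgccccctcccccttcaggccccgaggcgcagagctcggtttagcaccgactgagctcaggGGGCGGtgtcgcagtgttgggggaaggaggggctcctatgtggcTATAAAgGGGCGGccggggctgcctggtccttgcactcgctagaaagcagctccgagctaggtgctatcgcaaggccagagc

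The first 3 windows each hold TGANTCA followed by TATAAA, and no GGGCGG. In Mmp13 the TGANTCA match begins 35 bases and the TATAAA match 16 bases before the start site. In Mmp3 they begin 46 and 7 bases before it, and in Mmp10 63 and 29 bases before it. Mmp14 and Timp2 hold GGGCGG and neither other motif. Adamts1 holds 3 matches to GGGCGG and also TATAAA, 32 bases before its start site.

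Across the cluster TATAAA was present in 9 of 12 windows (75%), against 13.6% of all windows and 20.7% of windows with no interval within 1 kb. TGANTCA was present in 8 of 12 (66.7%), against 7.81% of all windows and 11.3% of those with no interval. All 8 of these windows held both motifs (66.7%), against 1.54% of all windows and 2.79% of those with no interval. They belong to Mmp13, Mmp12, Mmp1b, Mmp3, Mmp1a, Mmp10, Mmp20 and Mmp7. The TGANTCA matches began 35 to 95 bases before the start site (median 63). The 10 TATAAA matches began -4 to 123 bases before it (median 27), where a negative value lies after the start site. Their positions thus varied, and TATAAA here names letters only. Mmp8 held TATAAA without TGANTCA, and Mmp27 held neither. GGGCGG was absent from the 12 windows, against a share of 35.7% of all windows and 9.87% of windows with no interval. The clustered genes lie beside each other, so their windows are not independent, and a match is a description of letters, not a bound site.

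Members outside the cluster differed in these letters. GGGCGG was present in 18 of their 23 windows (78.3%), TATAAA in 2 (Adamts1 and Mmp21) and TGANTCA in 0. Among all windows with an interval within 1 kb, 57.4% held GGGCGG, 7.67% TATAAA and 4.90% TGANTCA. The content of G and C ran from 37.7% to 52% in the cluster (median 41.7%). In the other members it ran from 53.3% to 80% (median 64.7%), so the ranges did not overlap. The median was 52.7% over all windows, 60% over those with an interval within 1 kb and 46.7% over those with none. The CpG ratio is the number of CpG dinucleotides over the number that the window's C and G would give by chance. This ratio ran from 0 to 0.345 in the cluster and from 0.0897 to 1.01 in the other members, so here the ranges overlapped. Its median was 0.0862 in the cluster and 0.682 in the other members. Over all windows it was 0.384, over those with an interval 0.709 and over those with no interval 0.19.

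**Figure D3:**
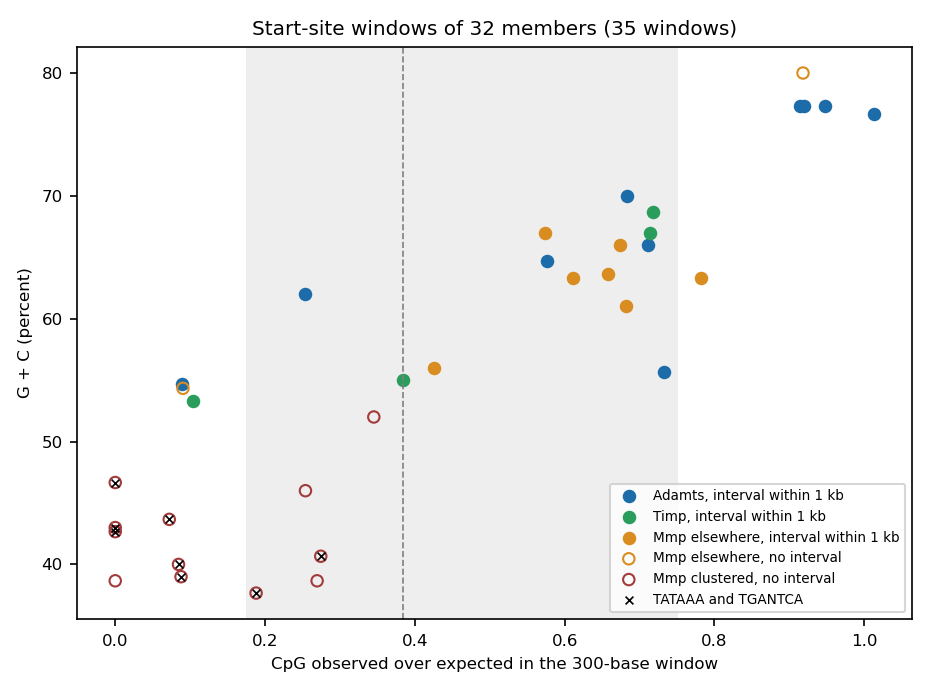
Content of G and C (percent) against the CpG ratio in the 35 start-site windows of 32 members, coloured by group, with open circles for windows without an interval within 1 kb and crosses for windows that hold both TATAAA and TGANTCA. The grey band and dashed line are the quartiles and median (0.384) of the CpG ratio over all windows; the clustered Mmp windows sit at the lower left, at 37.7% to 52% G and C, and hold all the crosses.

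The gelatinases, which cut denatured collagen and basement membrane collagen, gave the highest and the lowest marked Mmp values. Mmp2, a gelatinase made by mesenchyme, had a single end interval with a score of 5103 (chr8:92827324-92828796), 1473 bp wide, the highest of the Mmp genes and in the 77.6th percentile of all marked genes. It held no interval inside the gene and had 8 within 50 kb. Mmp9, the other gelatinase, had an end interval of 101 (percentile 6.03), 2 intervals inside the gene with a highest score of 95, and 7 within 50 kb. Both genes were marked, and their scores lay near opposite ends of the range.

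The membrane-anchored Mmp genes encode proteases that act at the cell surface, and Mmp14 is known to activate the Mmp2 precursor. All 6 had an interval at a gene end. Mmp14 had 4, with scores of 2889 over the start site (chr14:54431529-54432754), 187 and 101 before it and 335 at the 3′ end, of which that of 101 lies also at an end of Mrpl52. It had 11 intervals within 50 kb. Mmp16 had scores of 2410 and 281, Mmp15 had 2357, Mmp17 had 1039 and Mmp25 had 464. Mmp24 had a score of 1745 at its 3′ end only, in an interval that also lies at the ends of BC029722 and Eif6. The Mmp25 interval also lies at an end of Bicdl2.

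Mmp15 had many intervals for its size. It held 4 inside its 21.998 kb (97.7th percentile of density among genes of 20 to 100 kb) and 14 within 50 kb, the highest flanking count of the 46 members (92.6th percentile of all genes). Mmp16, at 264.408 kb the longest Mmp gene, held only 2, or 0.756 per 100 kb. That density was in the 10.8th percentile of genes over 100 kb, although an end of the gene was marked.

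Of the remaining Mmp genes elsewhere, Mmp11 encodes stromelysin-3, a protease of remodelling stroma. Its end intervals scored 3438 and 872, both also at an end of Chchd10, and 10 lay within 50 kb. Mmp28, which encodes epilysin, had 624 at its 5′ end and 1552 at its 3′ end, where the second lies also at an end of 1700020L24Rik, and it held 5 intervals inside its 22.273 kb, or 22.4 per 100 kb (99.2nd percentile of genes of 20 to 100 kb). Mmp23 had 816 and 299, both also at an end of Mib2. Mmp19 and Mmp21 had no interval at an end or inside. The nearest to Mmp19 lay 2.994 kb away with a score of 973, and the nearest to Mmp21 lay 10.682 kb away with a score of 56. An end interval at no other gene's end remained at 7 of the 13 Mmp genes elsewhere, 18 of 19 Adamts genes and 4 of 4 Timp genes, against 51.6% of all genes. Mmp11, Mmp23, Mmp24 and Mmp25 were the 4 marked members without one.

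The 4 Timp genes were all marked at the 5′ end, against 62% of all genes with a strand, over a range of scores from 137 to 5399. Timp2, the inhibitor that also takes part in activation of the Mmp2 precursor at the cell surface, had the highest end score of all 46 members, 5399 over its start site (chr11:118354701-118355940; 79.7th percentile of all marked genes). Timp3, which stays bound to the matrix and also inhibits several Adam and Adamts enzymes, had 2096 and 1101 on either side of its start site. Timp1 had 628 and Timp4 had 137. Of the 4 genes, 3 lie within the bounds of a synapsin gene, Timp1 in Syn1, Timp4 in Syn2 and Timp3 in Syn3.

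Timp2 and Timp3 also held many intervals for their size. Timp2 held 9 inside its 54.351 kb, with a highest score of 681, and Timp3 held 7 inside its 49.094 kb, with a highest score of 122. Per 100 kb of gene these were 16.6 and 14.3 intervals, in the 96.6th and 94.5th percentiles of genes of 20 to 100 kb. Both genes had 13 intervals within 50 kb. Upstream of Timp3, 2 intervals about 5 kb from its start scored 1013 (chr10:86294514-86295186) and 858 (chr10:86295383-86296299). Timp1 and Timp4, both under 20 kb, held none inside and had 4 and 5 within 50 kb. Timp1 lies on the X chromosome, which had 11.7 intervals per Mb in this list.

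Among the Adamts genes that cut proteoglycans such as aggrecan and versican, 7 of 7 had an interval at an end, against 65% of all genes. Adamts1 had 1497 and 1303, and the first was 2112 bp wide, the widest at an end of any member. Adamts9, an essential protease of embryonic versican turnover, had 1280. Adamts4 had a highest score of 710, and Adamts5 had 646 and 66. Adamts15 had 516 and 117, and Adamts8 had 423. Adamts20, the gene of the belted coat mutants, had 150 near its outermost annotated end. Its strongest interval lay inside the gene at 2965 (chr15:94403685-94404406), over the start site of the promoter table, 28.0 kb from the annotated end.

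This class holds 2 neighbouring pairs. Adamts1 and Adamts5 are 55.043 kb apart, with 3 intervals wholly between them. The highest score among these, 1303, is that of the Adamts1 end interval given above. Adamts15 and Adamts8 are 20.109 kb apart, with 2 wholly between them. The higher of these, at 117, is likewise an end interval of Adamts15. The end intervals of 516 and 423 also reach into the space between the 2 genes. In both pairs each gene had an interval at an end.

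The procollagen N-proteinases, which trim the amino ends of fibrillar procollagens, were marked in 3 of 3, against 65% of all genes. Adamts3 had 2046 and 196, Adamts14 had 1250 and 324, and Adamts2 had 882. Adamts2 held a stronger interval of 1261 (chr11:50622399-50623381) inside the gene, 20.8 kb from its 5′ end.

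The Adamts genes that cut cartilage oligomeric matrix protein were marked in 2 of 2, against 65% of all genes. Their scores were 2665 and 231 at Adamts7 and 1405 at Adamts12. Adamts13, whose product cuts von Willebrand factor in plasma, had 175 at its 5′ end and 5019 at its 3′ end. The second interval lies also at an end of Cacfd1, so the highest end score in the family is not that of its own start.

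The remaining 6 Adamts genes include Adamts10 and Adamts17, linked in people to disorders of fibrillin microfibrils, and Adamts6. Adamts19 had 3230, Adamts10 had 1768 and 881, and Adamts6 had 845, 482 and 326. Adamts18 had 331, and Adamts17 had 191 at its 5′ end and 184 at its 3′ end. Adamts16 was the 1 Adamts gene without an interval at an end. The gene held 14 intervals inside, with a highest score of 473, and the one nearest to an end lay 1.894 kb from it with a score of 63.

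The long Adamts genes held many intervals. An interval lay inside 13 of 19 Adamts genes, 2 of 4 Timp genes, 7 of 13 Mmp genes elsewhere and 2 of 10 clustered Mmp genes, against 41.2% of all genes. Gene length moved with these counts, since an interval lay inside 15.8% of all genes under 20 kb, 63.9% of those of 20 to 100 kb and 94.2% of those over 100 kb. The median length was 114 kb for Adamts genes, 28.4 kb for Timps, 17.0 kb for Mmp genes elsewhere and 10.7 kb for the clustered ones, against 17.2 kb for all genes. All 10 Adamts genes over 100 kb held an interval, which is near the share of all genes of that length. Their median number was 16.5 and their median density 8.81 per 100 kb, against 10 and 5.47 over all genes over 100 kb. Of the 7 Adamts genes of 20 to 100 kb only 2 held one, Adamts14 with 6 and Adamts5 with 2.

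Adamts9 held the most, 29 intervals in 171.752 kb, or 16.9 per 100 kb, in the 97.9th percentile of genes over 100 kb. Adamts12 and Adamts17 held 24 each (70.1st and 65.9th percentiles), and Adamts19 held 20 (75.2nd percentile). Adamts2 held 17, Adamts20 16, Adamts18 15, Adamts16 14, Adamts6 13 and Adamts3 9. Adamts3 lay in the 41.7th percentile of its length class. Adamts4, a short gene of 12.139 kb, held 3, or 24.7 per 100 kb (percentile 97.96 of genes under 20 kb). Adamts1, Adamts7, Adamts8, Adamts10, Adamts13 and Adamts15 held none.

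**Figure D4:**
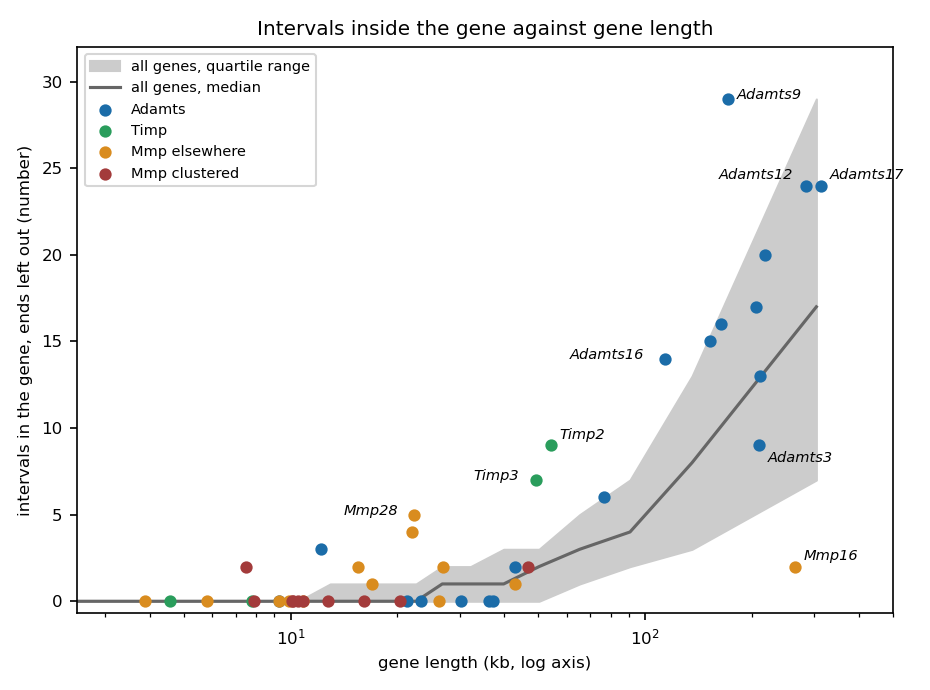
Number of intervals inside each gene (intervals at its ends left out) against gene length in kb (log axis) for the 46 genes, over the median (line) and quartiles (grey) of all protein-coding genes in 20 length bins. Adamts9 with 29, Timp2 with 9 and Timp3 with 7 lie above the grey band, as do some shorter genes, and Mmp16 with 2 lies below it.

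Intervals inside genes were smaller than those at ends. The 192 inside Adamts genes had a median score of 95.5 and a median width of 236 bp, while the 30 at Adamts ends had medians of 581 and 589.5 bp. A width of at least 1 kb was reached by 11 of the end intervals, at 11 genes, and by 1 inside a gene. In Adamts9 the 29 were spread over the gene, with 14 in the 5′ portion up to its midpoint. In Adamts12, 18 of 24 lay in that portion, and in Adamts17, 15 of 24. In Timp2, 3 of 9 lay there, and a group of intervals around 28 to 31 kb from the 5′ end included its scores of 681, 331 and 331.

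**Figure D5:**
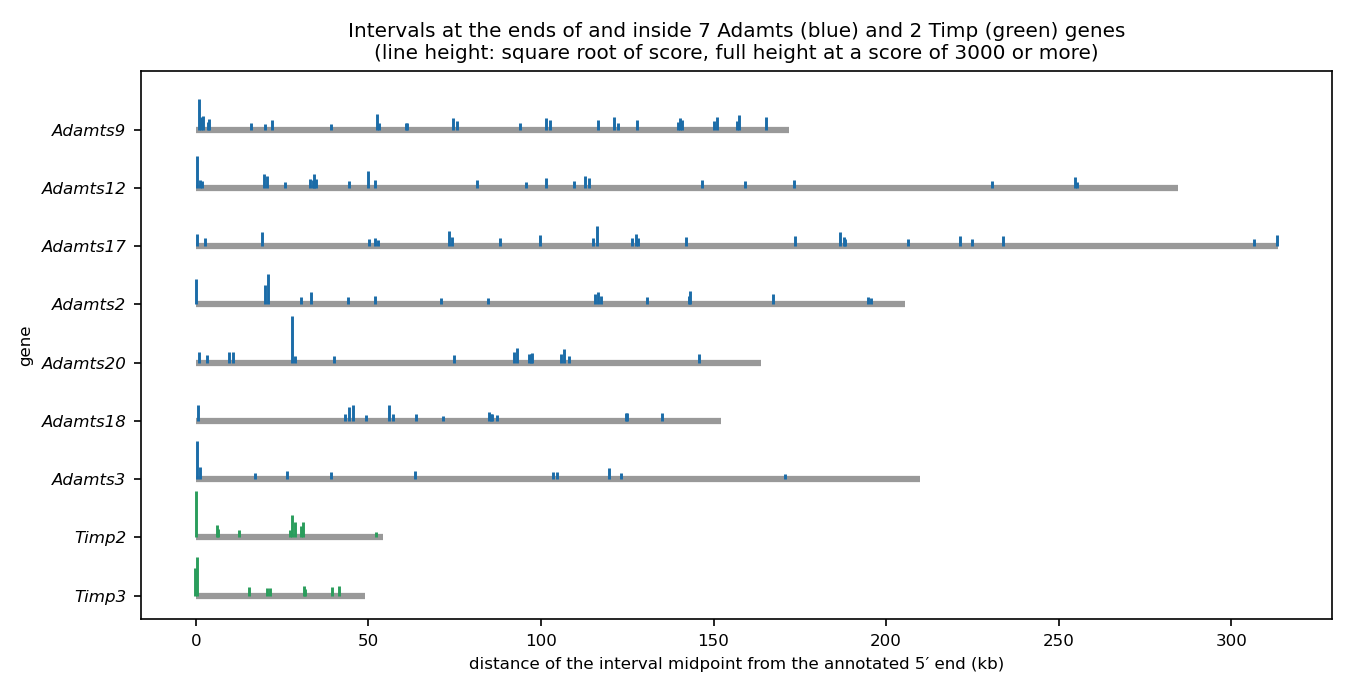
Positions of intervals at the ends of and inside 7 Adamts genes and 2 Timp genes, as distance in kb from the annotated 5′ end, with line height set by the square root of the score up to 3000. The tallest lines stand at the 5′ end except in Adamts20, where the interval of 2965 lies 28.0 kb inside, in Adamts2, where that of 1261 lies 20.8 kb inside, and in Adamts17 and Adamts18, where lines inside the gene are taller than that at the 5′ end.

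Outside the genes, too, the clustered Mmp genes had the fewest intervals of the 4 groups. The median number of intervals within 50 kb outside the gene was 6 for Adamts genes, 9 for Timps, 8 for Mmp genes elsewhere and 0.5 for the clustered Mmp genes, against 6 for all genes. At least 1 lay there for 18 of 19, 4 of 4, 13 of 13 and 5 of 10 genes of those groups, against 84.6% of all genes. Adamts10 was the 1 Adamts gene with none. The highest counts were 14 at Mmp15, 13 at Adamts4, Timp2 and Timp3, 11 at Mmp14 and Adamts19, and 10 at Adamts9, Adamts20, Mmp11 and Mmp25. In the cluster they were 3 at Mmp20 and 2 at Mmp7, whose neighbourhoods overlap, and 1 at Mmp10, Mmp8 and Mmp27.

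Some of these lie at ends of other genes. Of flanking intervals, 94 of 125 (75.2%) at Adamts genes, 31 of 35 (88.6%) at Timps and 50 of 97 (51.5%) at Mmp genes elsewhere were away from the ends of other protein-coding genes, against 64.6% for all genes. Of the 13 flanking intervals of Adamts4, 3 were away from other ends, while all 13 of Timp3 and all 10 of Adamts9 were. Adamts6 had a flanking interval of 2818 (chr13:104517610-104519419), 1810 bp wide and away from the ends of other protein-coding genes.

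Genes that work with these enzymes were mostly marked. Of 13 inhibitors and activators 12 had an end interval, against 65% of all genes. Reck, a membrane-anchored inhibitor of several Mmp enzymes, had 6880, Bsg, which encodes an inducer of Mmp production, had 6378, and Pcsk5, a proprotein convertase gene, had 3803. Plg, which encodes plasminogen, had none at an end. Of 7 ADAMTS-like genes, whose products lack the protease part, 6 had one, with 1303 at Thsd4, 599 at Adamtsl4 and 376 at Adamtsl1, and none at Adamtsl5. Of 10 membrane-anchored Adam genes 9 had one, with 5680 at Adam10, 4630 at Adam17 and 3987 at Adam9, and none at Adam19. The median of the highest end scores was 2257 for the inhibitors and activators and 356 for the ADAMTS-like genes. It was 2302 for the membrane-anchored Adam genes, against 2494 over all marked genes.

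Substrate genes were marked in 14 of 14, against 65% of all genes, with 5866 at Fbln1, 5023 at Fn1 and 2770 at Col3a1. The lowest were 87 at Comp and Vwf, and the median was 1243, against 2494 over all marked genes. The AP-1 subunit genes, whose proteins bind the TGANTCA letters, were marked in 7 of 7, against the same 65%. Fos had 3535, Fosl2 had 3313 and Jund had 3240, with a median of 3021 and the lowest at Junb (1086). Whether these proteins bound the windows of the Mmp cluster was not measured.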

How the data were processed

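The authors deposited 1 list of H3K27ac intervals with a score for each. Per the text deposited with it, merged reads of the 4 wild-type libraries of E10.5 were searched with MACS2 2.1.3.3 (no model, shift 0, extension size 141 bp, duplicates kept, q-value limit 0.001), with no control named. The submitters' processing notes name Bowtie 1.1.1, bcl2fastq 2.17 and the build GRCm38 (mm10). Without a control, piled-up reads can enter the list with high scores.

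Gene bounds and start-site windows came from RefSeq tables of GRCm38.p6, the build of the list. The windows gave a strand for 32 of 46 members; no start-site window was used for the others (Adamts4, Adamts5, Adamts6, Adamts7, Adamts8, Adamts10, Adamts15, Adamts16, Adamts19, Mmp2, Mmp9, Mmp16, Mmp17 and Mmp19), and either end counts there. An interval counts by at least 1 bp, first at a gene end (within 1 kb of either annotated end), then in the gene, then flanking (outside, within 50 kb). Percentiles are ranks among all protein-coding genes, for density those of the same length class. Counting used python 3.11.15, pandas 2.3.3, numpy 2.4.6 and matplotlib 3.10.9, and was tested on simulated intervals. Every member is accounted for, and partner genes are named where they are the 3 highest of a list or unmarked. The members and lists were chosen with earlier results of these data known. No test was possible: the list has no replicates, and its depth is unknown. Some values at 1 member are not reported here.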

Additional observations from a re-analysis of the deposited data

How the results depend on the processing

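No paired analysis was possible because the results come from 1 list pooled over 4 libraries and from no test, and no replicate could be left out for the same reason. Of 72 recomputed values, 51 stayed within 1.5 times their main value and 21 moved by more. The main end shares of Adamts, Timp and Mmp genes elsewhere were 84.6% to 100% and could not rise by that factor. That of clustered Mmp genes started at 0. The count of 51 is therefore not a measure of stability. At gene ends, the share of clustered Mmp genes was 10% with a window of 2.5 kb, through Mmp7, and that of Mmp genes elsewhere was 53.8% with intervals at no other gene's end, an alternative chosen after seeing the data. Inside genes, the share of clustered Mmp genes was 10% with scores of at least 100 and 10% with scores above the median. That of Mmp genes elsewhere was 30.8% with scores above the median. With end intervals kept in the count it was 100% for Timps and 84.6% for Mmp genes elsewhere. The median of flanking intervals moved with the width of the flank. Within 20 kb it was 3 for Adamts genes, 4 for Timps, 2 for Mmp genes elsewhere and 0 for clustered Mmp genes, against 2 for all genes, and within 100 kb it was 14, 16.5, 14 and 1.5, against 12. With scores above the median it was 3 for Adamts genes, 4.5 for Timps and 0 for clustered Mmp genes, against 3 for all genes. For clustered Mmp genes it was 0 with scores of at least 100 and 0 with 1 member per run. Without other genes' ends it was 3 for Mmp genes elsewhere, against 3 for all genes. The cause of these moves was not tested beyond what each setting removes or adds. Unknown depth sets the lowest acetylation the list can show, so an absent interval is not absent acetylation.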
